A study of Mus musculus with 8 samples.

Results

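Histones are the proteins that DNA is wound around in the nucleus, and their genes were followed here in the Kupffer cell preparations of naive and carbon tetrachloride-treated mice. A gene was taken when its symbol carried a histone H1, H2A, H2B, H3 or H4 gene family name in the older or the present mouse nomenclature, and pseudogenes were left out. This gave 75 of the 32899 genes with a matched transcript. Of the 75, 61 were replication-dependent histone genes, made up of 5 linker H1, 16 H2A, 15 H2B, 12 H3 and 13 H4 genes, 7 were replacement variants (H1f0, H1f10, H2aj, H2az1, H2az2, H3f3a and H3f3b) and 7 were germline histone genes. All 61 replication-dependent genes and all 7 variants reached at least 1 TPM in at least 3 libraries and were tested, as were 3 of the germline genes. The other 4 germline genes (H1f7, H2ac1, H2bc1 and H2bfm) stayed at or below 0.913 TPM in every library. The choice by symbol leaves out histone genes whose present symbols follow another pattern, among them H2ax, Macroh2a1, Macroh2a2, Cenpa, H2aw, H2bu2 and H4bc24. H2ab1, H2al2a and Hils1 are left out too, and no library listed any TPM for them.

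Kupffer cells are the macrophages that live in the liver, and their RNA was sequenced in 8 bulk libraries from wild-type mice. The 5 naive libraries came from untreated animals, and the 3 CCl4 libraries from animals given the hepatotoxin carbon tetrachloride in corn oil at 0.75 mL/kg, 3 times weekly over 8 weeks, a course that scars the liver. The comparison asked how Kupffer cells of fibrotic livers differed from those of naive livers. Sex, age and strain were not stated. The CCl4 libraries are numbered 1, 2-4 and 3, and the labels do not say what 2-4 stands for. No label ties a library to an animal of its own, so p-values speak only of how these libraries vary, which may in part be technical. Values are in TPM, which corrects for transcript length and brings every library to one total, so levels of different genes are on one scale. How the RNA was selected is not given, so levels of mRNA with and without a poly(A) tail may not be comparable. TPM keeps no sequencing depth, and no counting error can be attached.

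Most histone mRNA of dividing cells comes from the replication-dependent genes, which lie in clusters, are transcribed as DNA is copied, lack introns and end in a stem-loop in place of a poly(A) tail. The stem-loop is bound by the protein SLBP, which the mRNA needs for 3′ end processing and translation. Core histones H2A, H2B, H3 and H4 form the nucleosome, linker H1 binds where DNA enters and leaves it, and replacement variants come from ordinary polyadenylated mRNA made throughout the cell cycle.

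Of the 61 replication-dependent genes, 50 lay on chromosome 13 between 21715711 and 23764412, 10 lay on chromosome 3 between 96219885 and 96270192, and H4f16 lay on chromosome 6 (RefSeq, GRCm38). The classes were set by gene symbol. The stem-loop is shown first because it is read from sequence, independently of any expression value. It was searched for on the transcript's own strand in GENCODE release 21 transcripts of GRCm38 as the letters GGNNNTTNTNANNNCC with 6 fully paired bases on each side of the loop. Of the 48 replication-dependent genes whose transcript model runs at least 16 bases past the stop codon, 43 held it, 21 to 58 bases after the stop codon. Genes without it included H2bc21 and H2bc4, whose models run 2192 and 742 bases past the stop codon. No variant of 7 held it, and the germline genes H1f6 and H2bfm did. Of 21901 protein-coding genes 69 held it (0.315%), 45 of them among the 75. On each side 5 bases are printed in lower case and the stem-loop in capitals, 5′ to 3′.
H1f2, chr13:23739512-23739527, plus strand: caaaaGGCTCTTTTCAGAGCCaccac
H2ac18, chr3:96246032-96246047, plus strand: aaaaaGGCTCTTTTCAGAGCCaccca
H2bc8, chr13:23571843-23571858, plus strand: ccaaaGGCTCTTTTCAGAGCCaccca
H3c6, chr13:23561903-23561918, minus strand: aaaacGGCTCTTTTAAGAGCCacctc
H4c18, chr13:21831798-21831813, minus strand: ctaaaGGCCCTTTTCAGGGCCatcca
H4c11, chr13:21735437-21735452, plus strand: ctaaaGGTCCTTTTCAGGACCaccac
The 31 stem-loops found in H1, H2A, H2B and H3 genes all opened with GGCTCT, and 24 of them read exactly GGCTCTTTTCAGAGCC. The 12 found in H4 genes opened with GGCCCT in 10 genes and with GGTCCT in 2, and 7 read exactly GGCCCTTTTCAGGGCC. A gene without a match holds no such letters in its model, which says nothing about the mRNA itself.

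Promoters of the same genes are shown for 1 linker H1, 1 H2B and 1 H4 gene, because genes of all families rose in the CCl4 libraries while the families carry different short motifs. Each is the 120 bases before the RefSeq start site (GRCm38) on the gene's strand, in lower case, with 4 motifs on either strand in capitals, the octamer ATTTGCAT, the CCAAT box, the TATA box letters TATAAA and the H4 gene motif GGTCCG.
H1f3, chr13:23554912-23555031, plus strand: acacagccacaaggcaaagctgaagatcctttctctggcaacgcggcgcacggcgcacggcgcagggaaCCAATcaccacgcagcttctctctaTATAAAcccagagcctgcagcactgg
H2bc8, chr13:23571280-23571399, plus strand: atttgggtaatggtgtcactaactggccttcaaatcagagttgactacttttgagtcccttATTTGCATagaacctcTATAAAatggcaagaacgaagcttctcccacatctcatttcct
H4c12, chr13:21750554-21750673, minus strand: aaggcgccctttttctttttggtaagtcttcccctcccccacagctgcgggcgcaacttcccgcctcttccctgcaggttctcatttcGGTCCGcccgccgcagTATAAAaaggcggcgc
The full RefSeq windows, 250 bases before to 50 after the start, were given for 56 replication-dependent genes. The octamer ATTTGCAT was in 6 of 13 H2B and 5 of 16 H2A windows and in none of H1, H3 or H4, against 1.97% of 27025 genes. GGTCCG was in 11 of 12 H4 windows, 1 H2B and 1 H3 window, against 9.44% of all genes. CCAAT was in every H1, H2A, H2B and H3 window and in 3 of 12 H4 windows, against 41.1% of all genes. TATAAA was in 32 of 56, against 15.7%. A motif match is a description of letters and not of binding.

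Replication-dependent histone mRNA stood at 2.07 times its naive level in the CCl4 libraries, and the linker H1 and most H4 genes were above the naive range in each of them. Summed over the 61 genes it was 6010, 6578, 5267, 5538 and 5590 TPM in naive libraries 1 to 5, and 13989, 9168 and 12879 TPM in CCl4 libraries 1, 2-4 and 3. The groups did not overlap, and CCl4 2-4 was the lowest of its group. The means were 5797 ± 512 (SD, n = 5) and 12012 ± 2524 TPM (SD, n = 3). The 50 genes of the chromosome 13 clusters had a ratio of 2.15 and the 10 of chromosome 3 a ratio of 1.67.

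By limma on log2(TPM + 1), with Benjamini-Hochberg adjustment over 15626 genes, 44 of the 71 tested histone genes rose, 1 (H1f0) fell and 26 did not pass an adjusted p of 0.05. Over all genes tested 37.8% passed, 15.3% higher and 22.5% lower, or 2393 and 3512 genes. Quantile normalization gave 4011 and 3085 and moved the median log2 fold change of all genes from -0.06 to 0.11. Among the replication-dependent genes 40 of 61 rose and none fell, and the median log2 fold change was 0.97. At an unadjusted p under 0.05 the number that fell was 0 as well, and H3c14 was the single gene with a negative fitted value. The 3 CCl4 libraries were all above all naive libraries in 35 histone genes and all below in 1, against 16.3% and 20.6% of all genes. Fewer cells of a type and less RNA per cell cannot be told apart in bulk RNA.

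**Figure D1:**
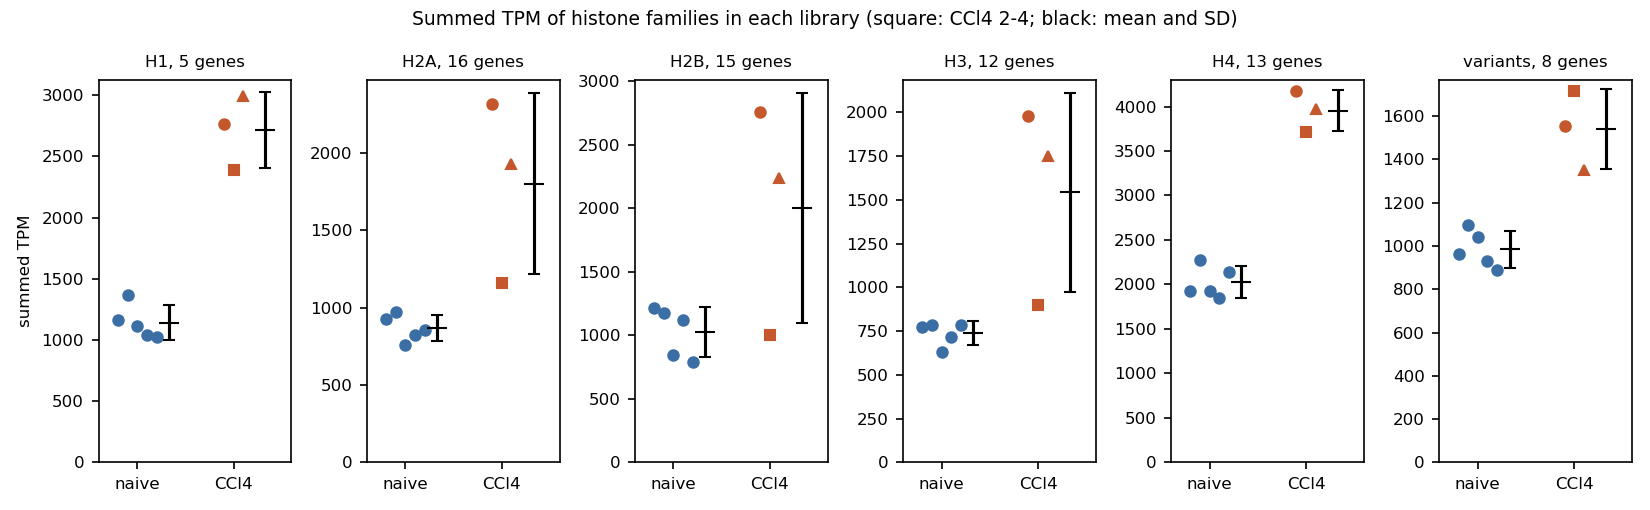
Summed TPM of the replication-dependent histone genes of each family, and of the 7 variants with H3f4, in each library (y axis, linear, from 0); the square is CCl4 2-4, the triangle CCl4 3 and the orange circle CCl4 1, and black marks the mean and SD. The CCl4 libraries sit above all naive libraries for H1, H2A, H3, H4 and the variants, while for H2B the CCl4 2-4 value of 1004 TPM lies among the naive libraries.

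All 5 replication-dependent H1 genes rose (median log2 fold change 1.23), and they did so with each library left out in turn. H1f2 (chromosome 13, 23738807 to 23739531), the most abundant histone mRNA of these preparations, was at 524, 628, 523, 473 and 432 TPM in naive libraries 1 to 5 and at 1204, 1089 and 1327 TPM in CCl4 libraries 1, 2-4 and 3. The lowest CCl4 library was well above the highest naive one. Its log2 fold change was 1.23 (SE 0.16, limma adjusted p = 0.000143).

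H1f3 (chromosome 13, 23555032 to 23555807) had the largest fitted rise of all 71 genes. It was at 164, 186, 125, 137 and 188 TPM in the naive libraries and at 539, 478 and 571 TPM in the CCl4 libraries. Its log2 fold change was 1.73 (SE 0.17, limma adjusted p = 1.86e-05), and no naive library came near the CCl4 values. H1f4 rose from 376 ± 59.8 to 740 ± 96.1 TPM (log2 fold change 0.98), H1f5 from 51.2 ± 6.35 to 150.2 ± 41.1 TPM (1.50) and H1f1 from 38.3 ± 6.16 to 89.8 ± 19.9 TPM (1.20), with n = 5 and n = 3 throughout.

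Among H2A genes 13 of 16 rose (median log2 fold change 1.04). H2ac18 (chromosome 3, 96245497 to 96246052), the most abundant, was at 316, 344, 283, 260 and 232 TPM in the naive libraries and at 612, 335 and 493 TPM in the CCl4 libraries. CCl4 2-4 fell inside the naive range and the other two lay above it, with a log2 fold change of 0.71 (SE 0.21, limma adjusted p = 0.0194). H2ac24 (chromosome 13, 21833024 to 21833475) was at 129, 103, 69.0, 96.7 and 137 TPM in the naive and 314, 244 and 328 TPM in the CCl4 libraries. Here all CCl4 libraries were above the naive ones, and the log2 fold change was 1.49 (SE 0.22, adjusted p = 0.000338). H2ac20 rose from 69.2 ± 8.998 to 117.9 ± 31.4 TPM (n = 5 and n = 3).

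The largest fitted H2A rise, 1.59 for H2ac11, had a SE of 0.50, since naive 3 stood at 7.45 TPM and the other naive libraries between 27.7 and 50.3 TPM. The other genes that rose were H2ac4 (1.46), H2ac15 (1.17), H2ac13 (1.16), H2ac10 (1.12), H2ac7 (1.11), H2ac22 (1.07), H2ac8 (0.98), H2ac12 (0.91) and H2ac6 (0.73). Of these, H2ac8 no longer passed without CCl4 1, CCl4 3 or any of naive 1 to 4 (limma adjusted p = 0.0563 to 0.176). H2ac12 and H2ac6 no longer passed without CCl4 1, CCl4 3 or some of the naive libraries. CCl4 2-4 was below the naive mean in H2ac8 (26.1 against 28.0 TPM) and H2ac6 (64.0 against 64.7 TPM). H2ac19, H2ac21 and H2ac23 did not pass. The H2A count was 7 without CCl4 1, 7 without CCl4 3 and 14 without CCl4 2-4. The 3 CCl4 libraries cleared all naive libraries in 7 of the 16.

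Of the H2B genes 6 of 15 rose (median log2 fold change 0.74). H2bc8 (chromosome 13, 23571400 to 23571863) was at 198, 190, 139, 187 and 138 TPM in the naive libraries and at 567, 211 and 503 TPM in the CCl4 libraries. The CCl4 2-4 value was just above the highest naive one. The log2 fold change was 1.22 (SE 0.29, limma adjusted p = 0.00751). H2bc6, at 92.7 to 205 TPM in the naive libraries, stood at 349, 92.5 and 282 TPM in the CCl4 libraries, so that CCl4 2-4 was below every naive library, and it did not pass (adjusted p = 0.403).

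H2bc4 rose from 209 ± 40.9 to 356 ± 123 TPM (log2 fold change 0.73, n = 5 and n = 3), though CCl4 2-4 at 226 TPM lay within the naive range. The sum of H2bc4 joins a pair of RefSeq transcripts. One went from 138 to 204 TPM in the naive libraries to 210 to 439 TPM, and the other was at 16.2 to 48.9 TPM and then at 15.9 to 29.6 TPM. H2bc3 (1.05), H2bc7 (0.97) and H2bc18 (0.70) also rose, as did the low H2bc22, from 5.46 ± 2.36 to 11.3 ± 2.09 TPM (n = 5 and n = 3). The H2B count was 3 without CCl4 1, 2 without CCl4 3 and 13 without CCl4 2-4, so it rests on which CCl4 libraries enter.

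Of the H3 genes, 6 of 12 rose (median log2 fold change 0.93). H3c6 (chromosome 13, 23561475 to 23562385) was at 224, 213, 176, 179 and 173 TPM in the naive libraries and at 487, 235 and 515 TPM in the CCl4 libraries, with CCl4 2-4 just above the naive range (log2 fold change 1.02, SE 0.24, limma adjusted p = 0.00682). H3c2 showed the largest rise to pass, from 78.1 ± 20.0 to 207 ± 57.2 TPM (n = 5 and n = 3), a log2 fold change of 1.39. H3c11 (1.24), H3c3 (1.16) and H3c1 (0.86) rose as well, and H3c4 from 57.7 ± 5.25 to 131 ± 69.3 TPM (n = 5 and n = 3). CCl4 2-4, at 53.9 TPM, lay within the naive range of H3c4, which no longer passed without CCl4 1, CCl4 3 or any of naive 1 to 4 (limma adjusted p = 0.0539 to 0.146). H3c13 averaged 97.8 ± 9.29 and 167.4 ± 83.1 TPM and did not pass (adjusted p = 0.12). H3c10 lay above the naive range in each CCl4 library with a log2 fold change of 1.36 and an adjusted p of 0.0538.

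H3c14, the only replication-dependent gene with a negative fitted value (log2 fold change -1.53, SE 1.16), was listed at 0 TPM in naive 1, CCl4 1 and CCl4 3 and at 4.69 to 20.1 TPM in the other libraries. None of the 31-base words of its GENCODE transcript was found in that gene alone, so its reads may not be separable from those of other genes. The RefSeq transcript on which its TPM were counted was not searched. The H3 count was 4 without CCl4 1, 4 without CCl4 3 and 9 without CCl4 2-4.

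H4 genes had the highest summed level of the 5 families in every library, 2023 ± 180 TPM in naive (SD, n = 5) and 3952 ± 229 TPM in CCl4 libraries (SD, n = 3). Of 13 genes 10 rose (median log2 fold change 0.94), and the count was 10 to 12 with each library left out in turn. H4c12 (chromosome 13, 21750145 to 21750553) was at 163, 161, 174, 142 and 195 TPM in the naive libraries and at 422, 500.5 and 462 TPM in the CCl4 libraries, and CCl4 2-4 was the highest of all. Its log2 fold change was 1.47 (SE 0.14, limma adjusted p = 1.73e-05).

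H4c18 (chromosome 13, 21831792 to 21832197) was at 235, 248, 193, 194 and 327 TPM and then at 606, 583 and 631 TPM, with naive 5 the highest naive library and still far below the CCl4 group (log2 fold change 1.36, SE 0.18). H4c6 had a log2 fold change of 1.59 (SE 0.24). H4c3 rose from 270.5 ± 23.3 to 479 ± 25.4 TPM (0.83, n = 5 and n = 3), a change with little spread in either group. H4c11 (1.37), H4c2 (1.22), H4c9 (1.06), H4c17 (0.94), H4c1 (0.86) and H4c14 (0.73) completed the genes that rose.

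H4c4 was the highest H4 gene in every naive library and in CCl4 1, while H4c18 was higher in CCl4 3 and H4c18, H4c12, H4c6 and H4c3 were higher in CCl4 2-4. It was at 337 to 447 TPM in the naive libraries and at 636, 368 and 611 TPM in the CCl4 libraries. Its adjusted p was 0.105, and 0.00842 without CCl4 2-4. H4c8 and H4f16 did not pass either, with log2 fold changes of 0.52 and 0.32.

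**Figure D2:**
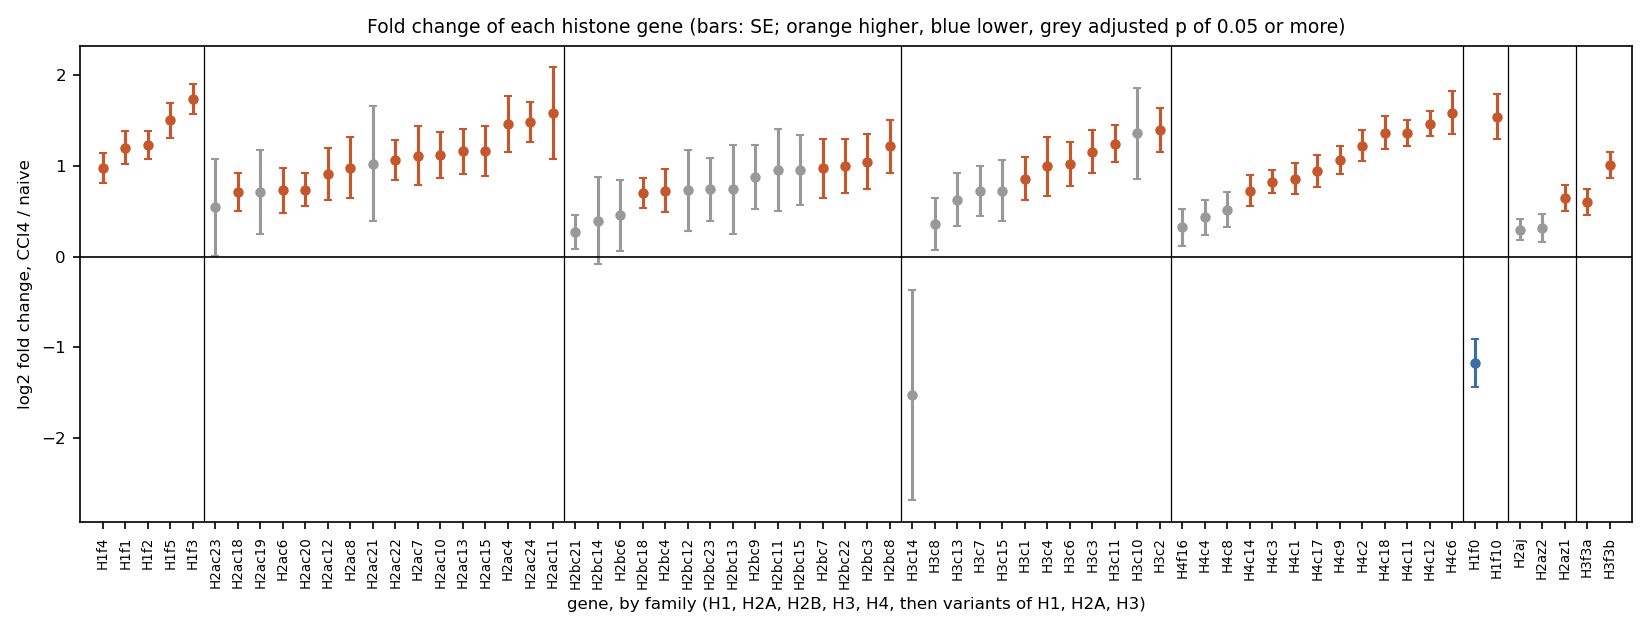
Fitted log2 fold change of CCl4 over naive libraries on the log2(TPM + 1) scale (y axis) for the replication-dependent and variant genes in order of family and size (x axis), with the standard error as bars; orange genes rose, the blue gene fell and grey genes did not pass an adjusted p of 0.05. All 5 H1 genes and 10 of 13 H4 genes are orange, 9 of 15 H2B genes are grey, and H1f0 and H3c14 alone lie below 0.

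The CCl4 libraries differed from each other in their histone pattern. CCl4 2-4 was the lowest of the 3 in 52 of the 61 replication-dependent genes, while it was the lowest in 23.5% of all genes tested. Compared with the mean of CCl4 1 and CCl4 3, its median ratio was 0.826 over H1 genes, 0.915 over H4 genes, 0.484 over H3 genes, 0.461 over H2A genes and 0.317 over H2B genes. Over all tested genes the ratio was 1.09, and over the 7 variants 1.08.

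CCl4 1 was above all naive libraries in 60 of the 61 genes, CCl4 3 in 56 and CCl4 2-4 in 31. Those 31 were all 5 H1 genes, 10 of 13 H4, 7 of 16 H2A, 6 of 12 H3 and 3 of 15 H2B genes. At or below the naive mean CCl4 2-4 held 19 genes, 8 of them H2B. The families were not uniform, since H4c4 and H4c8 were low in CCl4 2-4 beside the other H4 genes, and H2bc18 and H2bc22 were high beside the other H2B genes.

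**Figure D3:**
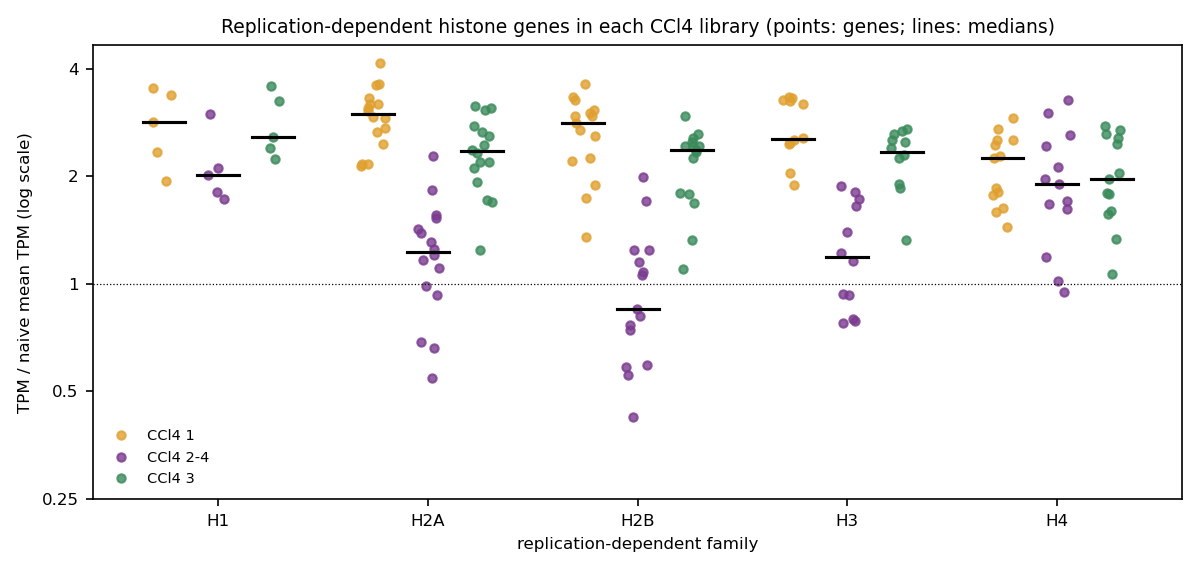
TPM of each replication-dependent gene in CCl4 1, CCl4 2-4 and CCl4 3 as a multiple of the gene's naive mean (y axis, log scale) by family (x axis), with a point per gene and a line at the family's median; H3c14, listed at 0 in CCl4 1 and CCl4 3, has no point there. The CCl4 2-4 medians are near those of the other CCl4 libraries for H4 (1.90 against 2.25 and 1.97) and below them for H2A (1.23 against 2.99 and 2.35) and H2B (0.85 against 2.83 and 2.37).

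The proportions between families moved accordingly. The ratio of summed H4 to summed H2B was 1.58, 1.94, 2.28, 1.65 and 2.71 in naive libraries 1 to 5, and 1.51, 3.70 and 1.77 in CCl4 libraries 1, 2-4 and 3. Naive 5 was the highest naive library in this ratio, and 9 of the 15 H2B genes were at their naive low there. Without CCl4 2-4, 57 histone genes rose and 2 fell, among them 53 of the 61 replication-dependent genes. Over all genes 1882 of 15352 then rose (12.3%) and 3172 fell. Leaving out naive 5 as well gave 61 and 3, and over all genes 2142 of 15092 (14.2%) and 4048. The replication-dependent sum of CCl4 2-4 was still above every naive library.

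Other values of CCl4 2-4 lay as follows. Its sum over T and NK cell markers was 217.5 TPM, against 75.2 and 59.1 TPM in CCl4 1 and CCl4 3 and 159 to 209 TPM in the naive libraries, and its dendritic cell marker sum was 708 TPM against 477 and 568 TPM. Its general macrophage sum, 4984 TPM, was the lowest of the CCl4 libraries (11855 and 7468 TPM), and its B and plasma cell sum, 169.5 TPM, was the highest (78.6 and 84.4 TPM). The RNA components Rn7s1 and Rn7s2 of the signal recognition particle held 34.4% of its TPM, inside the range of all libraries. Their part in the histone pattern was not tested.

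**Figure D4:**
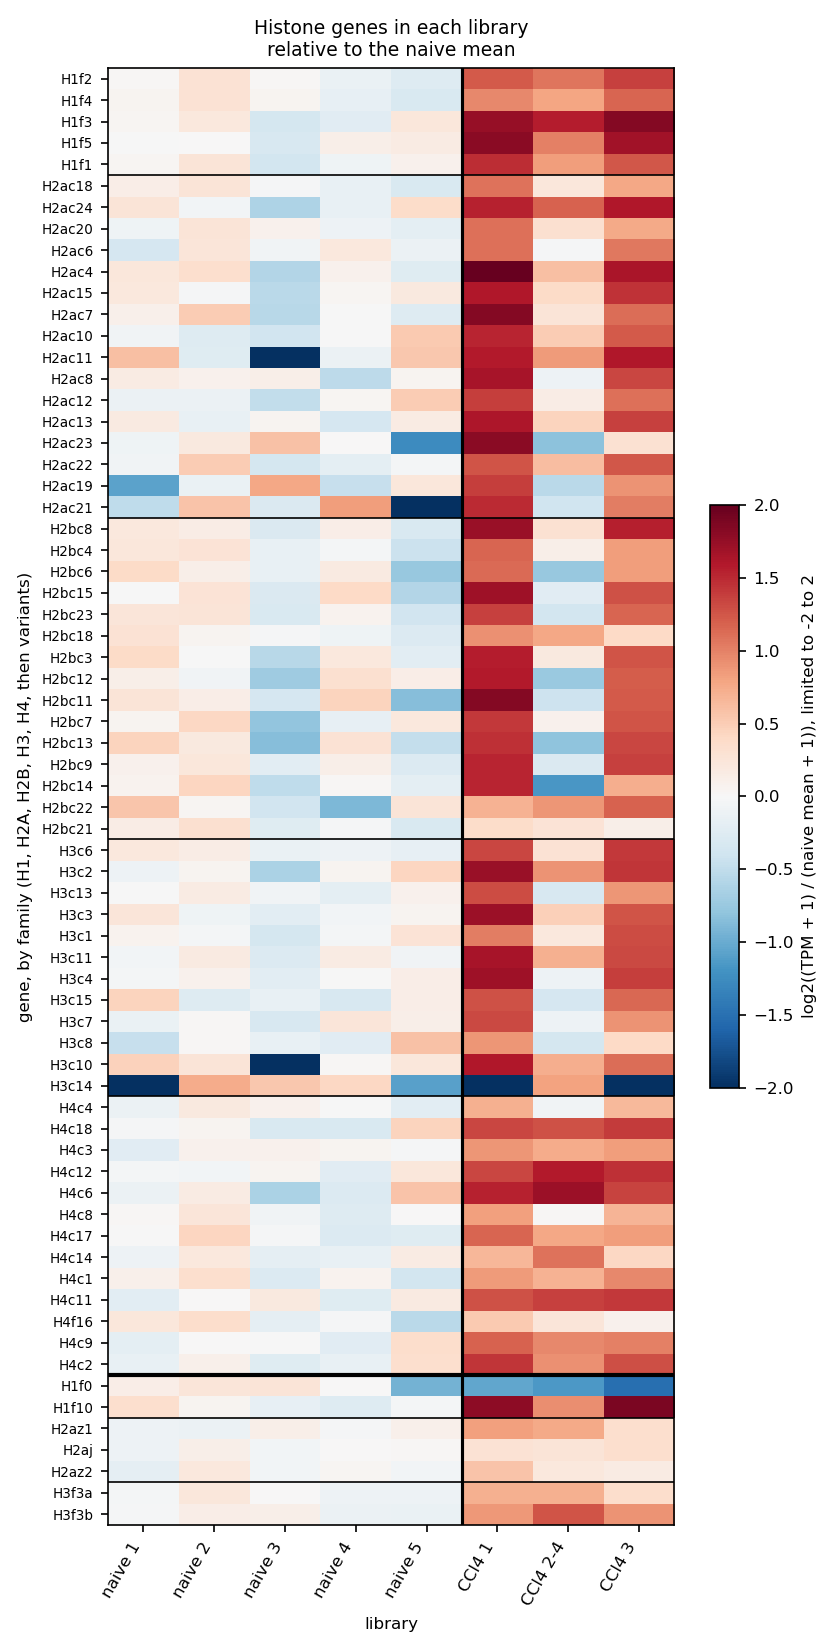
Replication-dependent and variant histone genes (rows, by family and falling mean level) in each of the 8 libraries (columns), coloured by log2((TPM + 1) / (naive mean + 1)), limited to -2 to 2. The columns of CCl4 1 and CCl4 3 are red in nearly every row; CCl4 2-4 is red in H1 and most H4 rows and pale or blue in many H2A, H2B and H3 rows, and H1f0 is the variant row that is blue in all 3.

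Near-identical copies limit how far a single gene can be followed. The share of a transcript's 31-base words found in no other GENCODE gene had a median of 96.1% in H1, 52.1% in H4, 41.5% in H2B, 36.9% in H3 and 17.2% in H2A genes, and 92.8% in the variants. Among genes described by library above, the share was 13.8% in H4c12, 12.5% in H4c18, 6.64% in H2ac24, 10.3% in H2ac18 and 15.6% in H3c6. It was 43.7% in H2bc8, 85.3% in H4c4, 88.6% in H1f2 and 96.5% in H1f3. All these shares are over GENCODE models, while the TPM were counted on RefSeq transcripts. The GENCODE model of H4c4 has 1138 bases and its RefSeq gene 402, and those of H1f3 have 7425 and 776. For H4c12 the GENCODE model is the shorter, with 312 bases against 409. Shares over the RefSeq transcripts were not computed and may be lower where the GENCODE model runs further. The transcripts of H2bc23 carried the same TPM as those of H4bc24 in all 8 libraries. Levels of single H2A, H2B, H3 and H4 genes are therefore uncertain where the counting split shared reads. Sums over a family are less affected, apart from reads shared with genes left out by the symbol rule. H4bc24 is such a gene, so the TPM listed for it enter neither the H2B sum nor the ratio of H4 to H2B.

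Replacement variants changed in both directions. Of 7, 4 rose, H1f0 fell and 2 did not pass, the same counts with each library left out in turn. Summed with H3f4 they averaged 984 ± 84.3 TPM in the naive (SD, n = 5) and 1541 ± 184 TPM in the CCl4 libraries (SD, n = 3). Here CCl4 2-4 was the highest library, at 1717 TPM.

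H3f3a and H3f3b both encode H3.3, the H3 variant deposited outside replication. H3f3b (chromosome 11, 116021961 to 116026039) was at 317, 353, 351, 299 and 296 TPM in the naive libraries and at 588, 774 and 602 TPM in the CCl4 libraries. The fitted log2 fold change was 1.01 (SE 0.15, limma adjusted p = 0.000302). H3f3a (chromosome 1, 180802560 to 180813605) was at 379, 456, 393, 363 and 365 TPM and then at 644, 640 and 501 TPM (0.60, SE 0.15, adjusted p = 0.00806). Both were above the naive range in every CCl4 library. The share of H3f3a and H3f3b in the summed H3 mRNA was 45.6% to 54.2% in the naive libraries and 38.4%, 61.1% and 38.7% in CCl4 1, 2-4 and 3. This share sets polyadenylated mRNA against mRNA that ends in a stem-loop, so it may depend on the RNA selection, which is not given.

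H2az1, which encodes the H2A.Z found at promoters and enhancers, rose from 117.1 ± 8.96 TPM (SD, n = 5) to 184.8 ± 31.7 TPM (SD, n = 3), its log2 fold change being 0.64 (SE 0.14, limma adjusted p = 0.00496) and no overlap between groups. Its paralogue H2az2 averaged 13.2 ± 1.46 and 16.8 ± 2.88 TPM (adjusted p = 0.134). H2aj was at 28.9 to 34.0 TPM in the naive and 37.7 to 39.6 TPM in the CCl4 libraries, a small difference without overlap that did not pass (log2 fold change 0.30, adjusted p = 0.0713). With quantile normalization both passed, at 0.0107 for H2az2 and 0.0139 for H2aj.

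The linker variants moved apart. H1f0, the H1 that accumulates in cells that have stopped dividing, was at 116, 126, 127, 107 and 54.6 TPM in naive libraries 1 to 5 and at 50.9, 47.5 and 36.6 TPM in CCl4 1, 2-4 and 3. Naive 5 stood near the CCl4 group and above it. The log2 fold change was -1.17 (SE 0.26, limma adjusted p = 0.00497). Naive 5 also had the lowest erythroid marker sum of the naive group, 225 TPM against 3578 to 6753 TPM, and the CCl4 libraries had 50.8 to 92.6 TPM. Naive 5 was also the naive library nearest the CCl4 group in its monocyte, dendritic cell and sinusoidal endothelial marker sums. Its monocyte sum was 254 TPM against 145 to 174 TPM in the other naive libraries, its dendritic cell sum 354 against 203 to 248 TPM, and its sinusoidal endothelial sum 7522 against 10670 to 14005 TPM. In the Kupffer cell marker sum naive 3 was nearest, at 2427 TPM against 3641 TPM in naive 5. The dendritic cell genes were mixed, with 4 of 8 higher and 2 (Zbtb46 and Clec9a) lower in the CCl4 libraries. The part of these marker sums in H1f0 was not tested. H1f10 rose from 0.901 ± 0.307 to 4.72 ± 1.85 TPM (n = 5 and n = 3), with 2.60 TPM in CCl4 2-4 as the lowest CCl4 value and 1.39 TPM as the highest naive one (log2 fold change 1.54, which understates the change at this level).

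**Figure D5:**
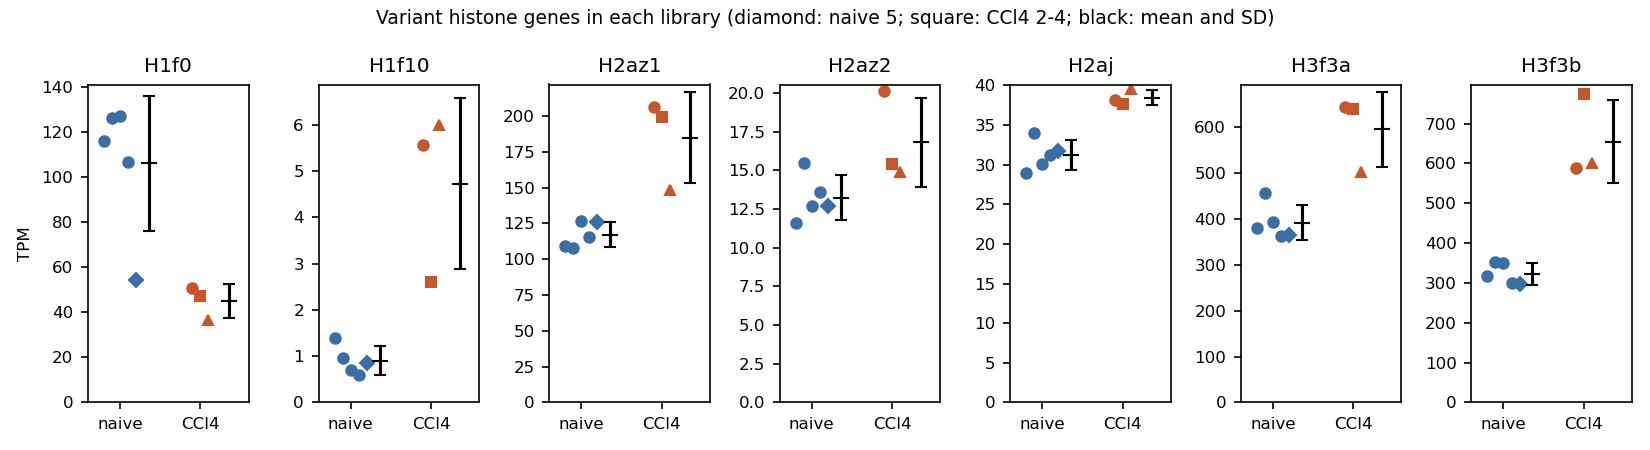
TPM of the 7 replacement variants in each library (y axes, linear, from 0), with the diamond for naive 5, the square for CCl4 2-4, the triangle for CCl4 3 and black for the mean and SD. H1f0 is lower and H1f10, H2az1, H2aj, H3f3a and H3f3b are higher in every CCl4 library than in any naive one, and H2az2 overlaps.

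Germline histones gave little signal. H1f6, a testis linker histone gene inside the chromosome 13 cluster, averaged 4.05 ± 1.83 and 1.963 ± 1.22 TPM (limma adjusted p = 0.175). It passed as lower without naive 5 (log2 fold change -1.05, adjusted p = 0.0118), with array weights (-1.14, adjusted p = 0.0174), and without naive 5 and CCl4 2-4 (-1.13, adjusted p = 0.0175). With a replicate block its adjusted p was 0.00464. H1f8 averaged 0.888 ± 0.677 and 0.622 ± 0.540 TPM and H3f4 0.72 ± 0.523 and 0.782 ± 0.869 TPM, and neither passed. Of the variants the symbol rule misses, Macroh2a1, which encodes macroH2A, was at 71.4 to 98.1 TPM in the naive and 178 to 199 TPM in the CCl4 libraries (log2 fold change 1.21, limma adjusted p = 4.9e-05). Cenpa, the centromeric H3, averaged 29.3 ± 5.63 and 30.6 ± 6.91 TPM, and H2ax, the variant phosphorylated at DNA breaks, 22.6 ± 1.61 and 29.7 ± 10.7 TPM, and neither passed.

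Genes that make histone mRNA were compared from a list of 27 genes, 26 of them tested. Of these 5 rose and 0 fell by limma (2 at an unadjusted p under 0.05), with a median log2 fold change of 0.20. The 19.2% of the list that rose was near the 15.3% of all genes tested, so this count does not set the list apart. None fell at the adjusted threshold, where 22.5% of all genes did. Slbp averaged 30.8 ± 4.00 and 24.1 ± 2.51 TPM (log2 fold change -0.34, adjusted p = 0.0988), and Npat, the coactivator of histone gene transcription, 7.27 ± 1.07 and 5.70 ± 0.844 TPM (adjusted p = 0.198). The genes that rose were Snrpg and Snrpe, which encode Sm proteins of the particles that cut and splice pre-mRNA, the exonuclease gene Eri1, and the transcription factor genes E2f1 and E2f2. E2f2 went from 3.11 ± 1.27 to 14.2 ± 1.89 TPM (log2 fold change 1.93, n = 5 and n = 3). Among the most abundant of the list, Snrpb and Srrt did not pass. Without CCl4 1 or CCl4 3 the number that rose was 3 and without naive 5 it was 5, with 3 that fell; quantile normalization gave 12 and 0.

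Histone chaperones, which carry histones to and from DNA, included 8 of 32 genes that rose and 2 that fell (median log2 fold change 0.21), where 15.3% of all genes rose and 22.5% fell. Npm1 rose from 154.6 ± 9.06 to 278 ± 50.7 TPM, Nap1l1 from 42.2 ± 6.88 to 102.1 ± 20.7 TPM and Anp32e, which removes H2A.Z, from 23.5 ± 4.94 to 51.9 ± 14.8 TPM (n = 5 and n = 3). Ubn1, a subunit of the HIRA complex that deposits H3.3, fell by 0.96 on the log2 scale. Atrx, which deposits H3.3 at repeats, fell by 2.43. Other genes tied to H3.3 deposition did not fall: Cabin1 (log2 fold change 0.45) and Daxx (0.52) rose, and Hira and Ubn2 did not pass. Set, Rbbp4 and Ncl, the other abundant members, did not pass.

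Other genes of the cell cycle gave a mixed picture beside the histones. Of 29 tested DNA replication genes 5 rose (Mcm5, Fen1, Uhrf1, Cdt1 and Pole) and 0 fell by limma, also 0 at an unadjusted p under 0.05, and the median log2 fold change was 0.35. None of the 29 fell, where 22.5% of all genes did, and the median of all genes was -0.06. The share that rose, 17.2%, was near the 15.3% of all genes, so the count that rose says little of replication genes. Pcna, the polymerase clamp, averaged 127 ± 12.6 and 166 ± 31.9 TPM and did not pass (adjusted p = 0.0847), nor did the abundant Mcm3 and Mcm6. That count was 2 without CCl4 1, 2 without CCl4 2-4, 7 without CCl4 3, 10 without naive 5 and 2 without any other naive library, and 15 with quantile normalization. Of 25 mitosis genes 23 rose (92.0%, against 15.3% of all genes), with a median of 1.01. Mki67 went from 11.02 ± 2.77 to 33.8 ± 9.97 TPM and Top2a from 9.61 ± 3.44 to 25.6 ± 4.79 TPM (n = 5 and n = 3), and Ube2c and Kif23 rose too. The replication gene sum was 678, 630 and 495 TPM in CCl4 1, 2-4 and 3, against 426 to 565 TPM in the naive libraries. Of these only CCl4 3 lay within the naive range, and the replication-dependent histone sum of CCl4 3 did not.

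The makeup of the preparations differed between groups beside these changes. The summed level of 10 Kupffer cell markers was 2427 to 5160 TPM in the naive and 278 to 360 TPM in the CCl4 libraries, with all 10 lower by limma and none at 0. The sum of 14 sinusoidal endothelial markers was 7522 to 14005 and 680 to 874 TPM, with all 14 lower, and that of 10 monocyte markers 145 to 254 and 725 to 1068 TPM, with 5 of 8 tested higher. General macrophage markers summed to 3661 to 7081 and 4984 to 11855 TPM. Of neutrophil markers Ly6g was at 0 in all libraries. The part of these differences in the histone levels was not tested.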

How the data were processed

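RNA-seq of mouse Kupffer cells was deposited for 5 naive and 3 CCl4 libraries, made with a directional kit from 1.5 ug of total RNA per the labels. Whether poly(A) RNA was selected is not given in the sources used here, and the RNAs Rn7s1 and Rn7s2, which have no poly(A) tail, held 27.5% to 41.3% of TPM. Per the submitters' processing notes, kallisto 0.42.4 and GRCm38 were used. The authors deposited TPM for each RefSeq transcript, as the file headers say.

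A RefSeq table of GRCm38.p6 matched 86714 of 107384 transcripts by accession without version. The 20670 unmatched held 6.06% to 7.58% of TPM. TPM were summed per gene. The test ran on log2(TPM + 1), pseudocount 1, over genes that reached 1 TPM in 3 libraries or more, with limma 3.58.1 in R 4.3.3 (lmFit, eBayes with an intensity trend), with Benjamini-Hochberg adjustment at 0.05. Fold changes on this scale understate those of low genes. Sums over genes got no test.

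Members and gene lists were chosen with earlier results of these data known. Genes named were those that passed, the 3 most abundant tested genes of each family and class, every variant, and the 4 most abundant of each related list; some further names were picked with their values in view. Each result was recomputed with other pseudocounts, low-value filters, scalings of TPM, variance models, weights, version-matched accessions, a replicate block and each library left out. Same-numbered naive and CCl4 libraries did not deviate together, with r of 0.08 (number 1) and -0.04 (number 3) across genes.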

Additional observations from a re-analysis of the deposited data

Results flagged for a closer look

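Among 61 quantities checked in the naive libraries (named genes, family sums and the H4 to H2B ratio), 2 had a single library far from the others, where chance gives about 1 in 20. H1f0 was at 54.6 TPM in naive 5 against 107 to 127 TPM in the other naive libraries. H2ac8 was at 19.1 TPM in naive 4 against 29.2 to 31.5 TPM in the others. Groups of 3 were not checked, so CCl4 2-4 could not be listed here.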

How the results depend on the processing

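The number of histone genes that passed was 45 and ranged from 33 to 59 with each library left out in turn, lowest without CCl4 3 and highest without CCl4 2-4. Over all genes the 5905 became 4576 to 6737. The other planned settings gave 35 to 55 histone genes, apart from the fit with a replicate block. That fit gave 60 (57 higher, 3 lower) and 5311 over all genes. In it H2az1, H3f3a, H2bc18 and H4c14 no longer passed, and since the groups share only the numbers 1 and 3 and no label ties them, the numbers are names and not pairs. Leaving out naive 5 together with CCl4 2-4, chosen after seeing the data, gave 64, and 6190 over all genes. The log2 ratio of the replication-dependent sums was 1.05, and 0.93 to 1.21 with each library left out. For the variant sum it was 0.65, 0.56 to 0.73 with each library left out, and 0.50 with version-matched accessions, which drop some transcripts. H3f4, near no change, turned to -0.036 with TPM rescaled to protein-coding genes or without small noncoding RNA (-0.0359 and -0.0355), -0.031 with array weights, and lay between -0.18 and 0.28 with each library left out, negative without naive 1 (-0.0074), naive 4 (-0.011) or naive 5. H1f8 lay between -0.40 and 0.12 with each library left out, positive without CCl4 1. Of the other values of single named genes, 992 kept their direction and side of the threshold, 74 no longer passed and 20 newly passed. TPM keep no depth, so how far depth limits the low genes is unknown.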
